A study of Mus musculus with 12 samples.

Results

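Apoe and 9 further genes of lipoprotein secretion, lipid efflux and lipoprotein uptake were followed in primary mouse hippocampal cultures after knockdown of the lncRNA *Neuid* (Gm10419). The 10 genes were those of the count table whose mouse gene symbol was Apoe, Clu, Abca1, Abcg1, Lcat, Lpl, Lrp1, Vldlr, Lrp8 or Scarb1. They were 10 of the 55471 genes counted, and all 10 were among the 19578 genes that passed the filter on low counts and were tested. Cultures were prepared from the hippocampi of wild-type CD1 embryos of mixed-sex litters at embryonic day 17. They received an antisense LNA gapmer in lipid nanoparticles at day 7 in vitro (DIV 7), and RNA was isolated at DIV 10. A gapmer is a short DNA strand with locked nucleic acids at its ends that directs RNase H to a matching RNA. Both groups carried the same genotype, and both received a gapmer: 6 libraries came from cultures with the negative control gapmer (control) and 6 from cultures with the gapmer against *Neuid* (*Neuid* KD). No other control gapmer and no untreated culture was analysed here. The labels do not say that the libraries of a group came from separate cultures, so p-values measure the spread between these libraries.

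In the brain, lipids move between cells on small lipoproteins that are assembled around apolipoprotein E, most of it made by astrocytes. ABC transporters of the plasma membrane load cholesterol and phospholipid onto the apolipoproteins, LCAT esterifies the cholesterol on the particle, and receptors of the LDL receptor family on neurons and glia take the particle up. LPL releases fatty acids from triglycerides, and some of the same receptors bind the signalling protein reelin.

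*Neuid* itself averaged 28.4 ± 2.03 CPM over the control libraries and 8.05 ± 1.13 CPM over the *Neuid* KD libraries (SD, n = 6 per group), where CPM is the reads of a gene scaled to the TMM-adjusted size of the library. The highest *Neuid* KD library, at 9.55 CPM, lay below the lowest control library, at 25.97 CPM. Control libraries held 18002585 to 30914714 counted reads and *Neuid* KD libraries 11152556 to 30573480. Libraries also differed in background reads, measured on chemosensory receptor genes, and these summed to 26.7 to 667 CPM in control and 27.1 to 616 CPM in *Neuid* KD. At or above 100 CPM were 4 control and 3 *Neuid* KD libraries. *Neuid* KD replicate 1 was both the smallest library and the one with the highest background of its group. The neuronal identity given in the labels was matched by the defining neuronal markers Rbfox3 (86.2 CPM in control), Tubb3 (556 CPM) and Snap25 (376 CPM). The listed astrocyte markers Slc1a2 (1185 CPM) and Gfap (140 CPM) were read in control cultures as well. The defining astrocyte markers Aldh1l1, Aqp4 and Gja1 were at 27.0, 32.6 and 27.5 CPM in control. Which cells these reads came from was not tested.

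Of the 10 genes, 3 were upregulated in *Neuid* KD, with an adjusted p under 0.05 and a log2 fold change above 0.5: Apoe, Abca1 and Lcat. Among all 19578 tested genes, 2.44% were upregulated by the same criteria. None of the 10 was downregulated by more than 0.5, against 0.792% of all tested genes. Without a fold-change threshold, 5 of the 10 passed the adjusted p of 0.05, namely these 3 and Clu with a higher and Abcg1 with a lower level, against 8.72% of all tested genes. For Apoe, Clu, Abca1 and Lcat, the 6 *Neuid* KD libraries did not overlap with the 6 control libraries, which held for 5.7% of all tested genes. The median log2 fold change was 0.22 over the 10 genes and -0.03 over all tested genes. Adjusted p-values are from edgeR's quasi-likelihood test over all tested genes with Benjamini-Hochberg adjustment, here and in what follows.

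**Figure D1:**
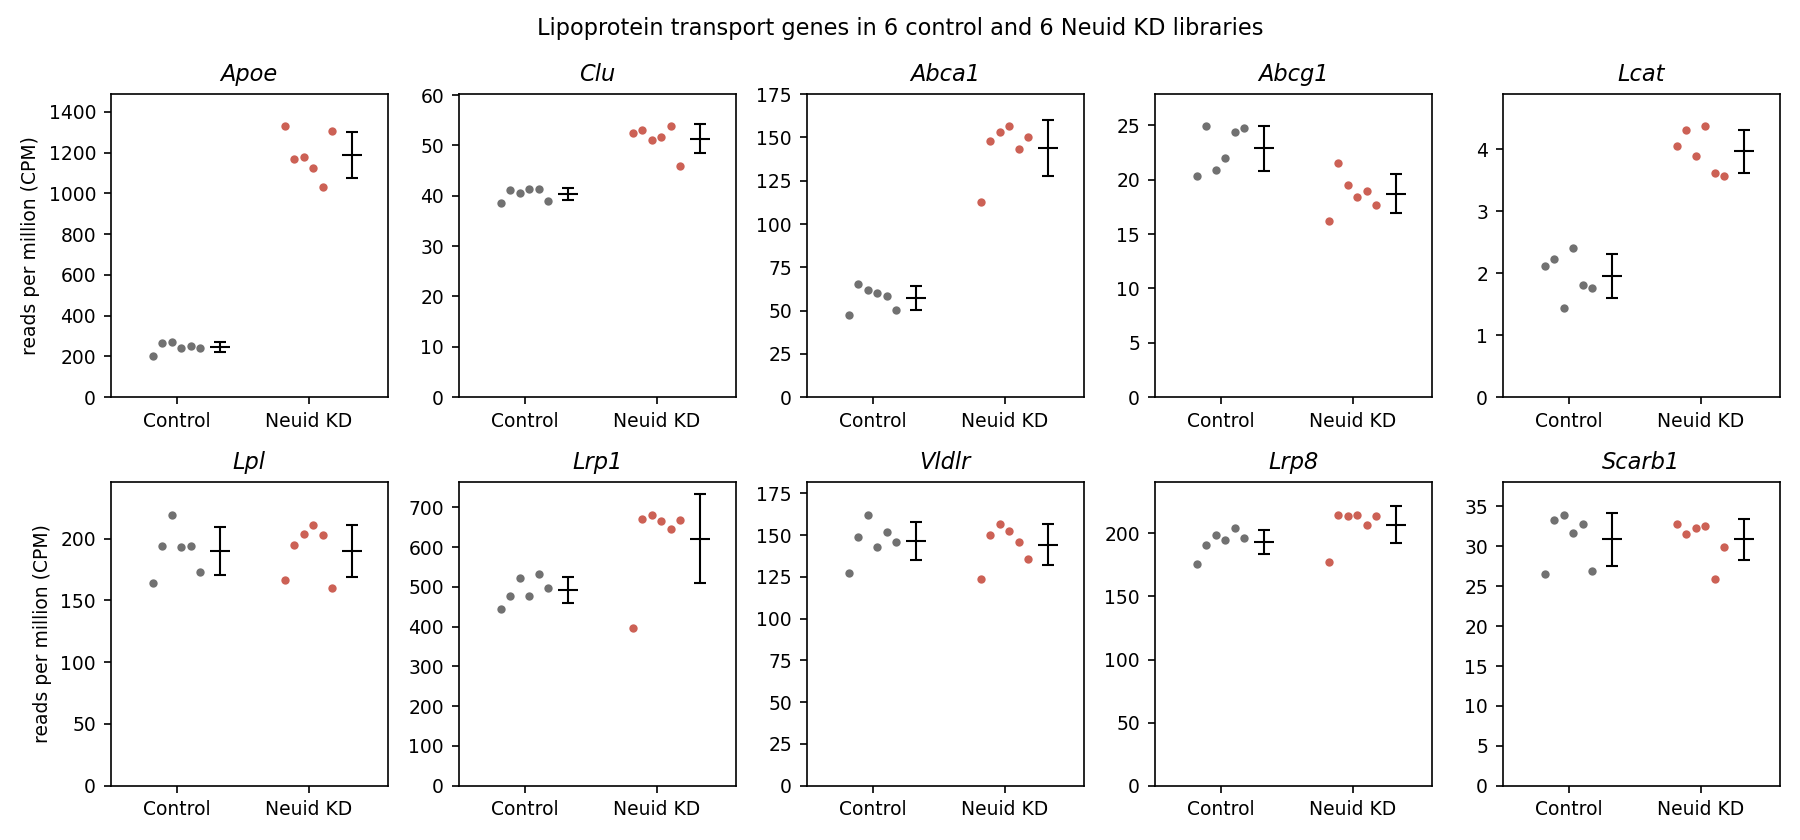
Level of each of the 10 genes in CPM (reads scaled to library size, linear axes from 0), with 1 point per library for 6 control (grey) and 6 *Neuid* KD libraries (red), and the group mean ± SD as a black bar beside the points. Apoe, Abca1, Lcat and Clu show no overlap between the groups, and in Lrp1 a single *Neuid* KD library, replicate 1 at 395.7 CPM, lies apart from the other 5.

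The stretch before the annotated start of the 3 upregulated genes is shown because these genes moved in the same direction. The sequences are those of RefSeq on GRCm38.p6, which is also called mm10, and give the 250 bases before the start, 5′ to 3′ on the strand of the gene. Capitals mark matches to a GC box (GGGCGG, on either strand) or a TATA box (TATAAA, on either strand).
Apoe, chr7:19699189-19699438, minus strand: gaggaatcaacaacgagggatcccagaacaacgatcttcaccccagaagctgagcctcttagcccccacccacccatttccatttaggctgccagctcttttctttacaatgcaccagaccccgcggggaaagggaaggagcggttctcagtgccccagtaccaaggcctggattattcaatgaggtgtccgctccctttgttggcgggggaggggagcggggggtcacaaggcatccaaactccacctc
Abca1, chr4:53159896-53160145, minus strand: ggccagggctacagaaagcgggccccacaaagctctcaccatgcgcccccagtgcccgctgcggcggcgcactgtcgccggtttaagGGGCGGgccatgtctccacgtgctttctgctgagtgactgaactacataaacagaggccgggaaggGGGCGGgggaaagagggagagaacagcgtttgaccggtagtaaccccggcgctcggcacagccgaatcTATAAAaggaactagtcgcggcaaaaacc
Lcat, chr8:105943403-105943652, minus strand: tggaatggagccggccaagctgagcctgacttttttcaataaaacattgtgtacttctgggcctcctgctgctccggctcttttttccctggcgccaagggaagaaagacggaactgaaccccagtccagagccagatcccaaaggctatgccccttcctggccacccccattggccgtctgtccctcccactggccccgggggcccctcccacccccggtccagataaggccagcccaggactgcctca
The Abca1 stretch held 2 GC boxes, with first bases at -163 and -97 from the start, and a TATA box at -29. Those of Apoe and Lcat held neither, and the 3 were 61.6%, 57.2% and 60.8% G or C for Abca1, Apoe and Lcat. Over the 32851 RefSeq windows of all genes, each with 250 bases before and 50 after a start, 35.7% held a GC box and 13.6% a TATA box. Apoe has windows at 2 further RefSeq starts, both inside the gene, and 1 of them held 2 overlapping TATA box matches, at -100 and -96. The nuclear receptor half-site AGGTCA, on either strand, was in 16.3% of all windows, and among the 11 windows of the 6 genes with an entry (Apoe, Abca1, Lcat, Lrp1, Vldlr and Lrp8) it was found in 1 of Lrp8. The direct repeat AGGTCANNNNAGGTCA, the spacing named DR4 that liver X receptors bind, was in 0.0152% of all windows and in none of these. Only these exact letters were searched, so a window without a match may hold a repeat that differs from them in some letters. A match is a description of the letters and not a site, and the lack of a match does not show that a site is absent.

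Apoe encodes apolipoprotein E, the main apolipoprotein of brain lipoproteins (ENSMUSG00000002985, a protein-coding gene on the minus strand of chromosome 7, 19696109 to 19699188). Control libraries held between 200.2 and 271.3 CPM of Apoe (median 248.2), and *Neuid* KD libraries between 1029 and 1330 CPM (median 1174). Every *Neuid* KD library was far above every control library, and the spread within each group was small beside the gap. The mean rose from 245 ± 25.2 CPM to 1189 ± 113 CPM (SD, n = 6 per group), which is 4.85-fold. The log2 fold change was 2.28 (SE 0.0777, 95% interval 2.11 to 2.44, adjusted p = 2.9e-12 from edgeR). Within the 7 libraries with at least 100 CPM of background it was 2.38, and within the 5 libraries under that level it was 2.11. In replicate 1 of *Neuid* KD, Apoe was at 1330 CPM, the highest value of its group, whereas Abca1, Abcg1, Lrp1, Vldlr and Lrp8 had their lowest value of the group in that library.

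Clu encodes clusterin, also called apolipoprotein J, which is likewise secreted by astrocytes (ENSMUSG00000022037, plus strand of chromosome 14, 65968483 to 65981547). It lay between 38.6 and 41.4 CPM in control (median 40.9) and between 45.89 and 53.85 CPM in *Neuid* KD (median 52.0). The groups did not overlap, but the distance between them was small. The means were 40.3 ± 1.25 and 51.3 ± 2.84 CPM (SD, n = 6 per group), or 0.35 apart in log2 fold change (SE 0.047, adjusted p = 6.2e-05 from edgeR), which is under the threshold of 0.5. With offsets for GC content and gene length the log2 fold change was 0.41 and the adjusted p was 0.455. Both secreted apolipoproteins were then compared directly. Within a library, the log2 ratio of Apoe reads to Clu reads was 2.60 ± 0.126 in control (SD, n = 6) and 4.53 ± 0.198 in *Neuid* KD (SD, n = 6). In linear terms there were 6.06 Apoe reads per Clu read in control and 23.1 in *Neuid* KD. The ratio was higher in 6 of 6 *Neuid* KD libraries than in any control library (two-sided exact permutation test over all arrangements of the libraries, p = 0.002165, the smallest possible, and 0.003247 after Benjamini-Hochberg adjustment over 3 ratios).

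Abca1 encodes the ABC transporter that passes cholesterol and phospholipid to lipid-poor apolipoproteins (ENSMUSG00000015243, minus strand of chromosome 4, 53030787 to 53159895). Its level was between 47.6 and 65.3 CPM in control (median 59.2) and between 112.6 and 156.6 CPM in *Neuid* KD (median 149.3). No library of one group reached the other, and replicate 1 of *Neuid* KD was the lowest of its group, with the other 5 between 143.5 and 156.6 CPM. The mean rose from 57.3 ± 6.90 CPM to 144 ± 16.0 CPM (SD, n = 6 per group), and the log2 fold change was 1.33 (SE 0.0869, adjusted p = 8.8e-09 from edgeR). In libraries with 100 CPM of background or more it was 1.29, and in those with less it was 1.31.

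Abcg1 encodes a second ABC transporter of cholesterol efflux, which acts on particles that already carry lipid (ENSMUSG00000024030, plus strand of chromosome 17, 31057675 to 31117988). It lay between 20.3 and 24.9 CPM in control (median 23.2) and between 16.2 and 21.5 CPM in *Neuid* KD (median 18.7). The ranges overlapped, since 5 of 6 *Neuid* KD libraries were below the lowest control library and replicate 2 was not. The means were 22.9 ± 2.07 and 18.7 ± 1.81 CPM (SD, n = 6 per group), and the log2 fold change was -0.28 (SE 0.0727, adjusted p = 0.0197 from edgeR). The adjusted p no longer passed 0.05 without control replicate 2 (0.0657), without control replicate 6 (0.0512) or without *Neuid* KD replicate 4 (0.0502), and it was 0.203 within the 5 libraries of low background. It was 0.157 with no filter on low counts and 0.769 with offsets for GC content and gene length. The Abca1 to Abcg1 ratio does not depend on library scaling. Its log2 value went from 1.32 ± 0.194 in control to 2.94 ± 0.134 in *Neuid* KD (SD, n = 6 per group), or from 2.50 to 7.68 Abca1 reads per Abcg1 read. All 6 *Neuid* KD libraries were above all control libraries (exact permutation test, p = 0.002165, adjusted 0.003247).

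**Figure D2:**
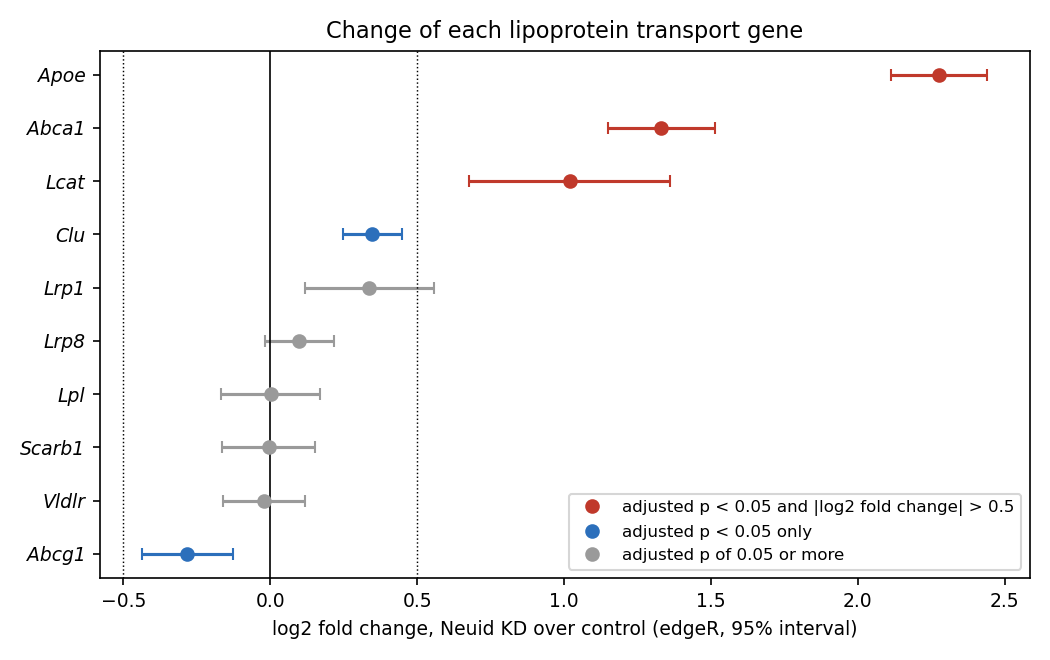
Log2 fold change of each of the 10 genes in *Neuid* KD relative to control, as points with the 95% interval of edgeR's fit (n = 6 per group); dotted lines mark the threshold of 0.5 in either direction. Apoe (2.28), Abca1 (1.33) and Lcat (1.02) lie past the threshold, and the intervals of Lpl, Vldlr, Lrp8 and Scarb1 include 0.

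Lcat encodes lecithin-cholesterol acyltransferase, the enzyme that esterifies cholesterol on secreted particles (ENSMUSG00000035237, minus strand of chromosome 8, 105939551 to 105943382). It was the gene with the fewest reads of the 10, with 39 to 125 reads per library. Its level was between 1.43 and 2.41 CPM in control (median 1.96) and between 3.56 and 4.37 CPM in *Neuid* KD (median 3.96). The groups did not overlap. The mean rose from 1.96 ± 0.357 CPM to 3.96 ± 0.342 CPM (SD, n = 6 per group), and the log2 fold change was 1.02 (SE 0.161, adjusted p = 3.3e-04 from edgeR). Within the 7 libraries with at least 100 CPM of background the log2 fold change was 0.82 and the adjusted p was 0.108, and within the 5 libraries under that level they were 1.35 and 3.2e-04.

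Lpl encodes lipoprotein lipase, which hydrolyses triglycerides of lipoproteins (ENSMUSG00000015568, plus strand of chromosome 8, 68880491 to 68907448). It had nearly the same mean in both groups, 189.9 ± 19.3 CPM in control cultures and 190.0 ± 21.4 CPM after *Neuid* KD (SD, n = 6 per group). The ranges overlapped, and the 95% interval of the log2 fold change ran from -0.17 to 0.17 (adjusted p = 0.997 from edgeR). The difference between the changes of the 2 enzymes, Lcat past the threshold and Lpl near 0, was not tested.

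Lrp1 encodes a large endocytic receptor for apolipoprotein E and many further ligands (ENSMUSG00000040249, minus strand of chromosome 10, 127538161 to 127621148). Control libraries held between 443.7 and 533.1 CPM (median 488.2), and *Neuid* KD libraries between 395.7 and 681.9 CPM (median 667.0). Of the *Neuid* KD libraries, 5 lay between 646.6 and 681.9 CPM, above every control library, and replicate 1 at 395.7 CPM lay below every control library. With all libraries the means were 492 ± 32.9 and 622 ± 111 CPM (SD, n = 6 per group), and the log2 fold change of 0.34 (95% interval 0.12 to 0.56) did not pass the test (adjusted p = 0.0541 from edgeR). Without replicate 1 of *Neuid* KD it was 0.40 (adjusted p = 5.8e-06). With all 12 libraries it passed under some other processing, among them DESeq2 (adjusted p = 0.0255) and the stricter filter on low counts (adjusted p = 0.0158). It did not pass with no filter on low counts (adjusted p = 0.396) or with offsets for GC content and gene length (0.494). With DESeq2 size factors in edgeR the adjusted p was 0.0683. With the counts of every library thinned to the total of that smallest library it was 0.29 (adjusted p = 0.0302). Within the 5 libraries of low background, which do not include replicate 1, it was 0.32 (adjusted p = 7.1e-09), and within the 7 of higher background 0.28 (adjusted p = 0.348).

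Vldlr and Lrp8 encode the 2 receptors that bind reelin as well as apolipoprotein E. Vldlr (ENSMUSG00000024924, plus strand of chromosome 19, 27216484 to 27254231) averaged 147 ± 11.6 CPM in control cultures and 144 ± 12.3 CPM after *Neuid* KD (SD, n = 6 per group). Its log2 fold change of -0.02 had a 95% interval from -0.16 to 0.12 (adjusted p = 0.917 from edgeR), and the ranges overlapped. Lrp8 (ENSMUSG00000028613, plus strand of chromosome 4, 107802261 to 107876840) averaged 193 ± 9.76 CPM in control cultures and 207 ± 14.9 CPM after *Neuid* KD (SD, n = 6 per group). Its log2 fold change of 0.10 had an interval from -0.02 to 0.22 (adjusted p = 0.384). Of the *Neuid* KD libraries, 5 held between 206.5 and 214.9 CPM of Lrp8, above the highest control library at 204.0 CPM, while replicate 1 held 177.2 CPM. The log2 ratio of Vldlr reads to Lrp8 reads within a library, which no scaling can move, was -0.40 ± 0.0659 in control and -0.52 ± 0.0688 in *Neuid* KD (SD, n = 6 per group). The difference of -0.12 was small, and the ranges overlapped, at -0.46 to -0.29 in control and -0.65 to -0.45 in *Neuid* KD (exact permutation test, p = 0.004329, adjusted 0.004329 over 3 ratios). A ratio shows that the receptors changed unequally and not which of them changed.

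Scarb1 encodes scavenger receptor class B type I, which takes up cholesterol esters from particles without internalising them (ENSMUSG00000037936, minus strand of chromosome 5, 125277087 to 125341094). It averaged 30.9 ± 3.27 CPM in control cultures and 30.9 ± 2.62 CPM after *Neuid* KD (SD, n = 6 per group). The ranges overlapped, and the interval of the log2 fold change ran from -0.16 to 0.15 (adjusted p = 0.984 from edgeR). None of the 4 receptors passed in the main edgeR test, and Lrp1 passed under some of the alternatives given above and not under others.

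**Figure D3:**
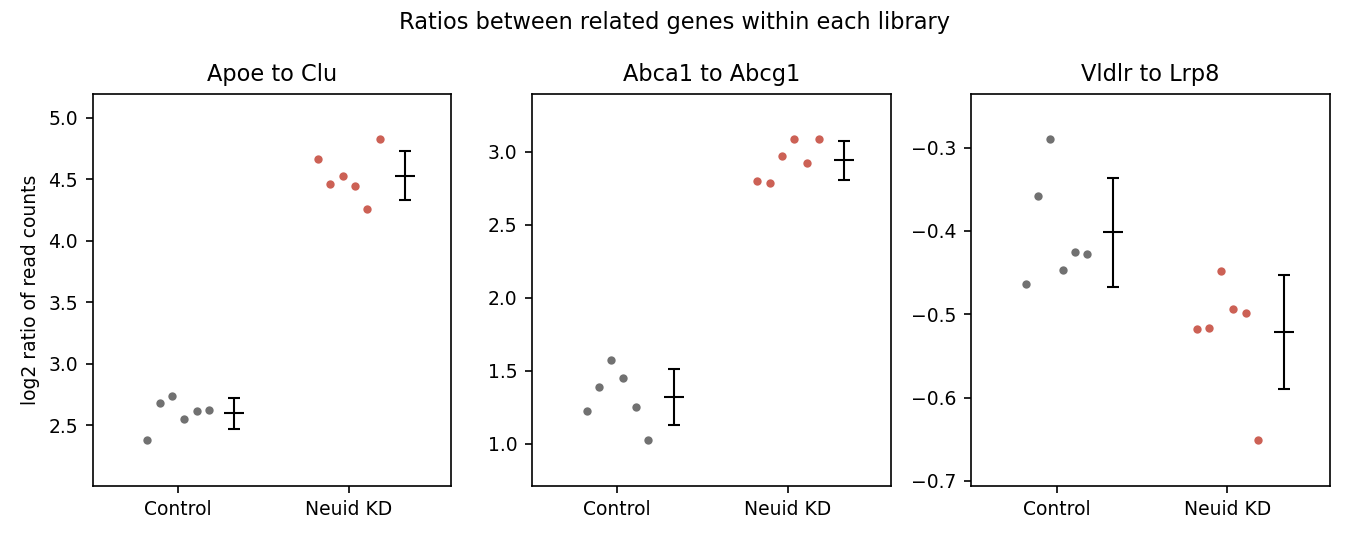
Log2 ratio of the reads of 2 related genes within each library, with 1 point per library for 6 control (grey) and 6 *Neuid* KD libraries (red) and the mean ± SD beside them; the vertical axes do not start at 0 and differ between panels. The ratios of Apoe to Clu and of Abca1 to Abcg1 lie apart by 1.93 and 1.62, while that of Vldlr to Lrp8 differs by -0.12 with ranges that overlap.

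Levels of different genes were compared as CPM per kilobase of annotated exon. In control, Apoe was the highest at 115 CPM per kilobase, followed by Lrp1 at 27.8, Lrp8 at 18.4, Lpl at 18.1, Vldlr at 14.6, Clu at 11.7, Abca1 at 5.53, Scarb1 at 3.63, Abcg1 at 3.14 and Lcat at 1.46. The library ranges of Lrp8 and Lpl, of Lpl and Vldlr and of Scarb1 and Abcg1 overlapped, so these neighbours were not separated. In *Neuid* KD, Apoe was at 556 CPM per kilobase and the next gene, Lrp1, at 35.1. Abca1 reached 13.9 CPM per kilobase, in a range that overlapped with that of Vldlr at 14.3, and the neighbours from Lrp8 through Lpl, Clu and Vldlr to Abca1 each overlapped with the next. Lcat, at 2.95 CPM per kilobase, overlapped with both Scarb1 at 3.63 and Abcg1 at 2.56.

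Markers of astrocytes were higher in *Neuid* KD, as were Apoe, Abca1, Lcat and, by less, Clu. Of 12 listed astrocyte markers 11 were tested, 9 were upregulated by the criteria above, and all 11 had a higher level without overlap between the groups. Their median log2 fold change was 1.31, with a range from 0.47 (Sox9) to 2.64 (S100b), and their summed level went from between 1733 and 2180 CPM in control to between 3201 and 3886 CPM in *Neuid* KD. The defining astrocyte markers were Aldh1l1, from 27.0 to 67.1 CPM, Aqp4, from 32.6 to 140 CPM, and Gja1, from 27.5 to 133 CPM. In bulk RNA, more cells of a type, more RNA per cell and expression of its markers in other cells, such as neurons, cannot be told apart. The part of the astrocyte markers in the change of Apoe, Abca1, Lcat and Clu was not tested. Set against the sum of the astrocyte markers within each library, Apoe was higher in *Neuid* KD by 1.41 on the log2 scale and Abca1 by 0.46, both without overlap between the groups. Lcat, at 0.17, overlapped. The other 7 genes were lower relative to that sum in every *Neuid* KD library than in any control library, from -0.52 for Clu and -0.55 for Lrp1 to -1.16 for Abcg1. These values depend on the markers chosen. Slc1a2 made up the largest part of the sum, 1185 of 1999 CPM in control, and rose by 0.63 on the log2 scale, so that the sum rose by 0.87. The defining markers rose by more, Aldh1l1 by 1.31, Aqp4 by 2.11 and Gja1 by 2.27. Beside these, the change of Abca1 (1.33) was close to that of Aldh1l1 and smaller than the other 2, and that of Apoe (2.28) was close to that of Gja1.

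Microglia are another cell type that expresses Apoe. Of their defining markers, P2ry12 was at most 0.278 CPM in control libraries and 0.674 CPM in *Neuid* KD libraries, Tmem119 at most 0.557 and 0.505 CPM, and Cx3cr1 at most 2.00 and 2.11 CPM, and each of P2ry12 and Tmem119 was at 0 in at least 1 library of each group. Of 12 microglial markers 5 were tested and none passed, with a summed level of 14.9 to 22.6 CPM in control and 13.1 to 22.4 CPM in *Neuid* KD. Choroid plexus markers, whose defining member Ttr was between 0.133 and 8.33 CPM in control and between 0.674 and 8.79 CPM in *Neuid* KD, summed to between 1.64 and 10.9 CPM and between 2.79 and 13.1 CPM, and none of 6 tested passed. None of 6 endothelial markers passed, with sums of 6.94 to 25.2 CPM in control and 7.07 to 23.4 CPM in *Neuid* KD, nor did any of 8 markers of fibroblasts and mural cells, with 37.5 to 61.7 CPM and 36.5 to 55.1 CPM. Of 8 markers of oligodendrocyte precursors 3 were upregulated, Olig1, Olig2 and Ptprz1, and the sum went from 455 to 612 CPM in control to 1248 to 1463 CPM in *Neuid* KD; of the 3 defining markers Olig2 was upregulated (log2 fold change 1.67) and Pdgfra and Cspg4 did not pass, and Ptprz1 is also expressed by astrocytes. Of 4 tested markers of myelinating oligodendrocytes 1, Mbp, was downregulated, with sums of 13.3 to 25.4 CPM and 9.65 to 20.1 CPM. Of 10 neuronal markers none passed, and their sum was 5823 to 6851 CPM in control and 5724 to 6823 CPM in *Neuid* KD.

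The genes whose profile over the 12 libraries was most like that of Apoe were sought among the 15204 tested genes that averaged 1 CPM or more. Likeness was the root mean square distance between log2 profiles, each centred on its own mean, and its median over these genes was 1.16. The nearest were Gja1, a gap junction protein of astrocytes (distance 0.0784), Mfge8, a secreted protein that binds phosphatidylserine (0.122), Aqp4, the water channel of astrocyte endfeet (0.127), Pla2g7, a secreted phospholipase also called lipoprotein-associated (0.136), and Npas3, a transcription factor (0.160). Each of these 5 had a log2 fold change between 2.09 and 2.54. A change near that of Apoe follows from the choice, since the difference between the groups enters the distance. Among the 10 genes, Abca1 ranked at 67 in nearness to Apoe, Lcat at 162, Clu at 762 and Lrp1 at 1084, and the other 5 between 3536 and 12572.

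Apoe lies in a gene-dense stretch of chromosome 7, and the level of its neighbours was read from the same fit. Of 10 listed neighbours within 100 kb, 6 were tested and none was past the threshold. Tomm40, a mitochondrial import receptor whose gene span lies 2.125 kb from that of Apoe, went from 37.6 ± 1.17 to 41.0 ± 1.24 CPM (SD, n = 6 per group, log2 fold change 0.12, adjusted p = 0.082 from edgeR). Clptm1 (0.13), Nectin2 (-0.05), Bcam (-0.08) and Clasrp (0.01) did not pass either. Relb, an NF-kappaB subunit at a distance of 66.7 kb, was higher by 0.41 on the log2 scale (adjusted p = 0.0235), under the threshold of 0.5. The apolipoprotein genes Apoc1, Apoc2 and Apoc4, which lie 3.45, 18.2 and 14.6 kb away, were below the filter on low counts, with Apoc1 at a mean of 0.0589 CPM under the control gapmer and 0.226 CPM under the *Neuid* gapmer.

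**Figure D4:**
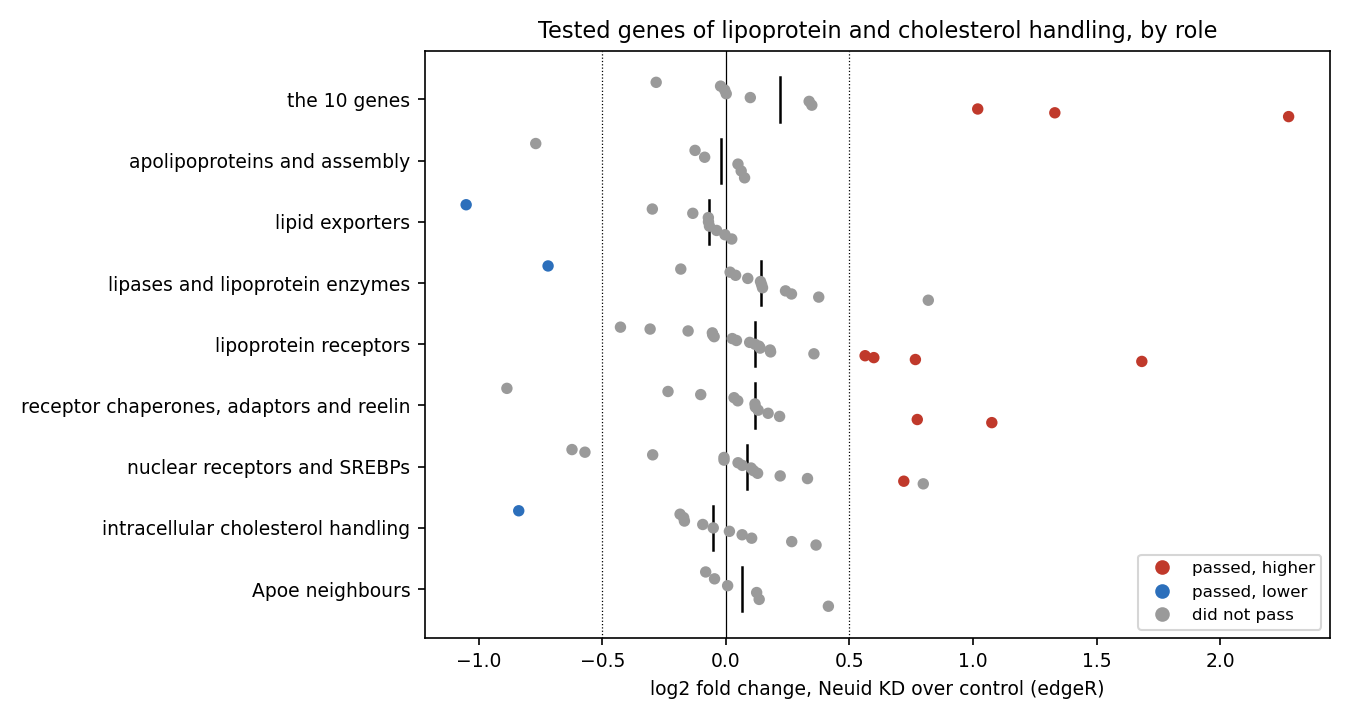
Log2 fold change in *Neuid* KD relative to control of the 10 genes (top row) and of every tested gene of 7 role lists and of the Apoe neighbours, with 1 point per gene, red for upregulated, blue for downregulated and grey for genes that did not pass both criteria; black bars are medians and dotted lines mark 0.5 in either direction. Apoe at 2.28 and the receptor Sorcs1 at 1.68 lie farthest to the right, and the row medians lie between -0.07 and 0.22.

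The wider pathway was read from 7 lists with 99 further genes, of which 83 were tested. Of these, 7 were upregulated and 3 downregulated, with a median log2 fold change of 0.05, against the shares of 2.44% and 0.792% over all tested genes. None of the 6 tested apolipoprotein and assembly genes passed, and the most abundant of them, Mttp, the transfer protein that loads lipid onto apolipoprotein B, averaged 13.9 CPM in control cultures and 13.1 CPM after *Neuid* KD. Of 9 tested lipid exporters besides Abca1 and Abcg1, 1 was downregulated, Abca8a, with means of 15.6 ± 1.54 CPM under the control gapmer and 7.53 ± 1.55 CPM under the *Neuid* gapmer (SD, n = 6 per group, log2 fold change -1.05, adjusted p = 6.5e-06 from edgeR), and 8 of the 9 had a log2 fold change below 0. Abca3, the most abundant, was at 233 and 232 CPM. Of 12 tested lipases and lipoprotein enzymes, 1 was downregulated, endothelial lipase (Lipg), from 22.1 ± 1.37 to 13.3 ± 1.55 CPM (SD, n = 6 per group, log2 fold change -0.72, adjusted p = 2.0e-06), without overlap between the groups.

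Receptors held most of the upregulated pathway genes, 4 of 19 tested. Sorcs1, a sorting receptor of the VPS10 family, rose from 5.97 ± 0.959 CPM to 19.2 ± 2.20 CPM (SD, n = 6 per group, log2 fold change 1.68, adjusted p = 3.8e-09 from edgeR). Lrp4, a member of the LDL receptor family that also binds agrin, rose from 25.3 ± 3.26 to 42.9 ± 5.25 CPM (log2 fold change 0.77), and Lrp1b, a close relative of Lrp1, from 80.1 ± 3.70 to 121 ± 16.3 CPM (0.60). Lrp5, a coreceptor of Wnt proteins, was the fourth, at 0.56. The most abundant receptor of the list, Sort1, averaged 185 CPM in control cultures and 188 CPM after *Neuid* KD and did not pass. Among 12 tested chaperones, adaptors and reelin, the adaptor Dab2 (log2 fold change 1.08, adjusted p = 0.00186) and the proteoglycan Sdc4 (0.77, adjusted p = 1.7e-06) were upregulated. Reelin itself (Reln) was at -0.23 on the log2 scale (adjusted p = 0.081), while the chaperone Lrpap1, which keeps LDL receptor family members from binding ligands during their synthesis, had 0.22 (adjusted p = 0.0096).

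Among the nuclear receptors and SREBPs that govern cholesterol genes, 3 of 14 tested genes passed the adjusted p and 1 was upregulated, the coactivator Ppargc1a, from 37.6 ± 2.50 to 61.7 ± 6.02 CPM (SD, n = 6 per group, log2 fold change 0.72, adjusted p = 6.6e-07 from edgeR). The liver X receptors, which activate Apoe, Abca1 and Abcg1 when bound by oxysterols, did not pass, with log2 fold changes of 0.11 for Nr1h2 (adjusted p = 0.21) and -0.57 for Nr1h3 (adjusted p = 0.55). Srebf1 was higher by 0.33 on the log2 scale (adjusted p = 0.00135), under the threshold, and Srebf2 was at 306 and 304 CPM. Of 11 tested genes of intracellular cholesterol handling, Cav1, the caveolin of membrane invaginations, was downregulated from 10.9 ± 1.64 to 6.11 ± 0.444 CPM (log2 fold change -0.84, adjusted p = 1.0e-05). The lysosomal cholesterol exporters Npc1 (0.36, adjusted p = 2.1e-04) and Npc2 (0.27, adjusted p = 0.0136) passed the adjusted p but were under the fold-change threshold.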

How the data were processed

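RNA-seq libraries were prepared from 5 ng of total RNA with a stranded total RNA kit and sequenced as single reads of 50 bases. No molecular identifiers are named in the sources used here, so reads are not independent molecules. Per the study's methods, the authors aligned reads to mm10 with STAR and counted them per gene with featureCounts. The deposited values are raw counts of reads per Ensembl gene and library, without normalization. The annotation release, the strand setting and the handling of duplicates are not given in the sources used here. Symbols and positions came from GENCODE M21 on GRCm38, which matched 55144 of 55471 genes. No exon of the 10 genes overlaps an exon of another gene, although Abcg1, Lcat, Lrp1, Lrp8 and Scarb1 overlap the span of one.

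Counts were filtered with filterByExpr, scaled with TMM and tested with edgeR 4.0.16 in R 4.3.3 (quasi-likelihood test, group only, all 12 libraries, 19578 genes, Benjamini-Hochberg). A gene was called where its adjusted p was below 0.05 and its log2 fold change exceeded 0.5 in size. The study used DESeq2 with RUVseq, and DESeq2 1.42.0 without and with 1 factor of unwanted variation were alternatives. Ratios were tested with a two-sided exact permutation test, written out in Python 3.11.15 with numpy 2.4.6. The script was tested on simulated data with known changes. No pair of libraries of a group differed by sampling noise alone, as 1 library sequenced again would. The chi-square per degree of freedom was at least 3.38 over 30 pairs. That value does not show that the libraries came from separate cultures or RNA. The log2 profiles used a prior count of 2.

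The 10 genes, the lists and the split at 100 CPM on 2012 chemosensory receptor genes were chosen with earlier results of these data known. Named from each list were up to 3 called genes per direction with a mean of at least 1 CPM, by size of change, and the most abundant gene. All tested neighbours of Apoe and the 5 nearest profiles were named too. Lrp5, Reln, Lrpap1, the liver X receptors, Srebf1, Npc1 and Npc2 were named after their values were seen.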

Additional observations from a re-analysis of the deposited data

Results flagged for a closer look

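A value was marked when the gap between the highest or lowest library and its neighbour, divided by the range of the 6 libraries of the group, was above Dixon's 95% critical value. Of 26 groups looked at, 5 were marked, where chance marks about 1 in 20. Replicate 1 of *Neuid* KD was the low library for 3 genes: Abca1 at 112.6 CPM (the others between 143.5 and 156.6), Lrp1 at 395.7 CPM (646.6 to 681.9) and Lrp8 at 177.2 CPM (206.5 to 214.9). It was the smallest library, with 11152556 reads, and had 616 CPM of background reads. Replicate 6 of *Neuid* KD was low for Clu, at 45.89 CPM (51.1 to 53.85), and for the log2 ratio of Vldlr to Lrp8, at -0.65 (-0.52 to -0.45).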

How the results depend on the processing

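Each result was recomputed under other scalings, filters, tests and library sets. Apoe, with log2 fold changes from 2.11 to 2.38 over 24 alternatives, and Abca1, from 1.27 to 1.36, kept their direction and passed under every one of them. The number of upregulated members was 2 to 4, with 2 within the libraries of at least 100 CPM background, where Lcat was at 0.82 (adjusted p = 0.108). With no fold-change threshold 1 member was lower. With GC and length offsets Clu was at 0.41 and Abcg1 at -0.27 and neither passed. Abcg1 also failed at -0.21 in the low-background libraries and -0.28 without a filter, and over leave-one-out fits it ranged from -0.34 to -0.26. Lrp1 passed at 0.27 with upper-quartile scaling, 0.325 with DESeq2, 0.28 with DESeq2 and 1 factor and 0.31 with background as a covariate. It also passed at 0.32 in the low-background libraries, 0.32 with the stricter filter and 0.29 with thinned counts. Lrp1 did not pass at 0.34 without a filter, 0.30 with GC and length offsets or 0.32 with DESeq2 size factors. In the high-background libraries, at 0.28, it did not pass either. Over leave-one-out fits Lrp1 ranged from 0.28 to 0.40 and passed only without *Neuid* KD replicate 1. Lpl, near 0 in every fit, turned to -0.058 (upper quartile), -0.017 (DESeq2 size factors), -0.0106 (DESeq2), -0.0395 (DESeq2 and 1 factor), -0.0177 (background covariate), -0.0258 and -0.0573 (high and low background), -0.0133 (stricter filter), -0.0393 (thinned), -0.0153 (GC and length) and, leaving out 1 library, -0.051 to 0.051. Vldlr (-0.058 to 0.014) and Scarb1 (-0.061 to 0.029) crossed 0 when 1 library was left out, and Scarb1 also without a filter (0.0023). The causes were not tested.

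Over all genes, 1235 were higher and 473 lower without a fold-change threshold, and 167 and 48 above a log2 fold change of 1. The downregulated number was 302 with DESeq2 and 1 factor, 300 with the background covariate, 94 with GC and length offsets and 123 to 269 over leave-one-out fits, the highest without *Neuid* KD replicate 1. In the 5 low-background libraries the log2 ratios differed between *Neuid* KD and control by 1.80 (Apoe to Clu), 1.53 (Abca1 to Abcg1) and -0.13 (Vldlr to Lrp8), where 0.1 is the smallest p that 2 against 3 libraries allow.

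Replicate numbers are shared between the groups, and same-numbered libraries deviated together for replicates 1 and 3 but not for the others. Correlations were 0.774 for replicate 1 and 0.751 for replicate 3, and ran from -0.637 to 0.0037 for the others. Thus 2 of 6 were over 0.1, and 3 of 12 libraries correlated best with their own number. Background in control and *Neuid* KD was alike for number 1 (667 and 616 CPM) and number 3 (26.7 and 27.1 CPM). It was less alike for numbers 2 (420 and 72.3 CPM), 4 (592 and 50.5), 5 (28.7 and 290) and 6 (183 and 333). The part of background in these correlations was not tested. With the replicate block 474 genes were higher and 167 lower, 3 members were upregulated, Lrp1 was at 0.32 (adjusted p = 0.0124) and Lpl at -0.0012. Depth limits Lcat most, with as few as 39 reads in a library.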
